A study of Homo sapiens with 4 samples.

Results

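The genes described here are 10 genes of neurons and of the factor that silences them, in 2 cancer cell lines given inhibitors of DNA methylation and of histone deacetylation. They are REST, SNAP25, SYT1, SYP, STMN2, STMN3, SCG3, GAP43, INA and NEFL. They were chosen by name, with earlier results of these data known, and matched to the feature names of the deposited gene table. All 10 were found among 43296 gene names. H1299 is a non-small cell lung cancer line and HCT116 a colorectal cancer line, both at passage 5 to 10. Cells of each line received either the solvent DMSO or 500 nM of DAC (decitabine, an inhibitor of DNA methyltransferases) for 72 h and 500 nM of the inhibitor SB939 (a histone deacetylase inhibitor) for 18 h, with fresh compound every 24 h. The treated libraries are called DAC+SB. Each of the 4 combinations was 1 library of single cells read from the 5′ end of the transcript. There were no replicates, so no test was made, and every interval covers counting error only.

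REST is a zinc finger protein that binds a DNA element called RE1 in and near many neuronal genes. In cells other than neurons it brings corepressors there, among them RCOR1, SIN3A, the histone deacetylases HDAC1 and HDAC2 and the histone demethylase KDM1A. The other 9 genes encode proteins of neurons. SNAP25, SYT1 and SYP act in the release of synaptic vesicles, and SCG3 sorts cargo into dense-core granules. STMN2 and STMN3 are stathmins, which bind tubulin, and GAP43 is a growth cone protein. INA (alpha-internexin) and NEFL (the light chain) are subunits of neurofilaments.

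The 4 libraries held 15289 cells, between 3578 and 4327 each, and 38927267 to 64524196 summed counts of genes and transposable elements (TE). The median cell had 17369.5 (DMSO) and 15784.5 (DAC+SB) counts in H1299, and 16257.5 and 8449 in HCT116, so the treated HCT116 cells were the shallowest. The median mitochondrial share of a cell was 8.33% and 8.87% in H1299 and 15.8% and 18.6% in HCT116, DMSO first. Of 15158 barcodes, 131 occurred in more than 1 library. A gene's count is the sum of the feature with its plain name and of features that add a number to it. The sources used here do not say what that number means, and values over plain-named features alone, an alternative chosen after seeing the data, stand beside the results they move. Levels are given as CPM (counts scaled to a common total of gene and TE counts, as usual for this unit), with exact 95% Poisson intervals. The line labels were checked with marker lists. Mesenchymal genes chosen for H1299 summed to 2986 and 1489 CPM in the H1299 libraries (DMSO first) and to 326 and 363 CPM in the HCT116 libraries. VIM alone held 2282 and 1151 CPM of the H1299 sums. Epithelial and intestinal genes chosen for HCT116 summed to 138 and 89.0 CPM in HCT116 and to 1.21 and 35.7 CPM in H1299. EPCAM alone held 80.7 and 45.2 CPM of the HCT116 sums. Not every gene of this list went with the sums. With DAC+SB, CLDN3 (21.7 against 12.5 CPM), LGALS4 and TSPAN8 were higher in H1299 than in HCT116, and TSPAN8 also with DMSO. Of the 10 genes of this list, 4 had at least 100 counts in H1299. All 4, EPCAM with 1 and 279 counts among them, were at least 4-fold higher with DAC+SB, against 11.0% of all genes. Their part in the results below was not tested.

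The regions before the genes' start sites are shown first, because the libraries were read from the 5′ end and CpG dinucleotides there are the sites of DNA methylation. Windows of 7 of the 10 genes were read from the RefSeq table of promoters (GRCh38.p14), each from 250 bases before to 50 after a start. SNAP25 had no window in that table, and windows of STMN2 and NEFL were not examined. Some windows, those of STMN3 and SYT1 among them, lie inside the gene as annotated in GENCODE v29, downstream of its outermost start. Where the counted reads began was not examined, so a window need not be the promoter of the counted transcripts. The sequences below are the 250 bases before the RefSeq start of INA and STMN3, with each CpG in capitals. They are shown because INA was higher and STMN3 lower with DAC+SB in HCT116.
INA (chr10:103276888-103277137, plus strand): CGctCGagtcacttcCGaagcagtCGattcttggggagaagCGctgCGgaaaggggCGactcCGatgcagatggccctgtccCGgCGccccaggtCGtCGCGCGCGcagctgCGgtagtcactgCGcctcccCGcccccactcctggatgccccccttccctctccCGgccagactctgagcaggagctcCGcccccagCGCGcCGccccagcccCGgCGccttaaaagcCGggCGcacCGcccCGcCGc
STMN3 (chr20:63652767-63653016, minus strand): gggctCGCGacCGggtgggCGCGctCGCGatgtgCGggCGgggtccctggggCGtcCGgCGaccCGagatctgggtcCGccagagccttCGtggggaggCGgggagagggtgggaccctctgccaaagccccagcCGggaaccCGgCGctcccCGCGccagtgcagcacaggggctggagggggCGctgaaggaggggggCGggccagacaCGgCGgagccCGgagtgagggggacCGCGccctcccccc

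Over the full windows of 300 bases, INA, STMN3 and SYP each had 35 CpG, SCG3 had 18, SYT1 had 15 and GAP43 had 7. REST, with 2 annotated starts, had 44 and 46. Over all 35116 windows in that table the median was 14 CpG, with quartiles of 4 and 28. Methylation of these windows was not measured, and its part in the changes was not tested. As a description only, the directions of the 3 genes with 35 CpG differed. INA was lower with DAC+SB in H1299 and higher in HCT116, STMN3 was lower in both lines, and SYP was higher in both, with values below.

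The windows were also searched on both strands for letters of the left and right ends of the RE1 element, TTCAGCACC and GGACAGC. SCG3 was the only one of the 7 genes with both.
SCG3 (chr15:51681511-51681534, plus strand, both ends in capitals): TTCAGCACCcacagggcGGACAGC
The ends lay 8 bases apart, in the same direction, starting 8 bases after the RefSeq start. In GENCODE v29 this stretch is in the first exon and 5′ UTR of both annotated transcripts that cover it. GAP43 and 1 of the 2 REST windows held the right end alone. Of all windows, 0.376% held the left end, 6.03% the right end and 0.0683% both. These are matches of letters, and binding was not measured.

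REST itself (chromosome 4, 56907876 to 56966678, GRCh38) was lower with DAC+SB in both lines. In H1299 it had 2339 counts or 36.2 (34.8 to 37.7) CPM with DMSO and 1536 counts or 24.6 (23.4 to 25.9) CPM with DAC+SB. The HCT116 values were 3800 counts or 60.7 (58.8 to 62.6) CPM with DMSO and 1630 counts or 41.9 (39.9 to 44.0) CPM with DAC+SB. The 4 intervals did not overlap, with HCT116 above H1299 under the same treatment. The log2 ratio of DAC+SB over DMSO was -0.56 (-0.65 to -0.47) in H1299 and -0.53 (-0.62 to -0.45) in HCT116. By this ratio REST stood above 22.5% of genes in H1299 and 37.2% in HCT116, so many genes were lower still. The medians of all genes were -0.07 and -0.23. The H1299 ratio minus the HCT116 ratio was -0.02 (-0.15 to 0.10), an interval that includes 0. A numbered feature of REST had exactly 409 counts in each HCT116 library, in 331 and 346 cells with no barcode in common, and was listed in neither H1299 library. Over the feature with the plain name alone, the HCT116 ratio was -0.79 (-0.88 to -0.69). The line difference was then 0.23 (0.10 to 0.36), so the lines differ or not beyond counting error depending on this feature.

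The genes did not all go one way. They had been grouped as neuronal genes released from repression, and repression was not measured here. Because they were chosen with earlier results of these data known, the shares of all genes beside them are a description only. Of the 10 genes, 8 had at least 100 counts in the higher library of each line, and over these the 4-fold threshold was read. In H1299, 3 of the 8 (STMN2, NEFL and SYT1) were at least 4-fold higher with DAC+SB, against 11.0% of 14610 genes with that minimum. In HCT116, 4 of the 8 (INA, STMN2, NEFL and SYP) were at least 4-fold higher, against 9.63% of 13539 genes. A gene with few DMSO counts reaches the minimum only through DAC+SB and is then past 4-fold by the rule itself. This held for STMN2 and NEFL in both lines and for INA in HCT116, so those calls were fixed by the minimum. It also holds for such genes among all genes and in the gene lists. None of the 8 was at least 4-fold lower, against 0.349% and 3.69% of genes. With a 2-fold threshold, H1299 had 4 higher and 0 lower, against 18.3% and 7.34% of genes, and 5 and 1 in HCT116, against 16.2% and 20.0%. Above 0 were 4 in H1299 and 6 in HCT116, against 45.9% and 40.6% of genes. The median log2 ratio was 0.42 over the 8 genes and -0.07 over all genes in H1299, and 1.66 and -0.23 in HCT116. REST, SNAP25, STMN3 and INA were lower with DAC+SB in H1299, and REST and STMN3 in HCT116. Over plain-named features 7 of the 10 genes had the minimum count in each line. At least 4-fold higher were then 1 in H1299 (STMN2), against 7.90% of all genes, and the same 4 in HCT116, against 5.31%. With the 2-fold threshold H1299 had 2 higher and 1 lower, against 14.4% higher and 1241 of 13120 lower over all genes. HCT116 had 4 and 1, against 10.2% higher and 3035 of 11803 lower. Above 0 were 3 and 5, against 40.4% and 30.4% of all genes. The H1299 median of the genes turned to -0.56, against -0.17 over all genes, and the HCT116 median was 3.46, against -0.45.

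**Figure D1:**
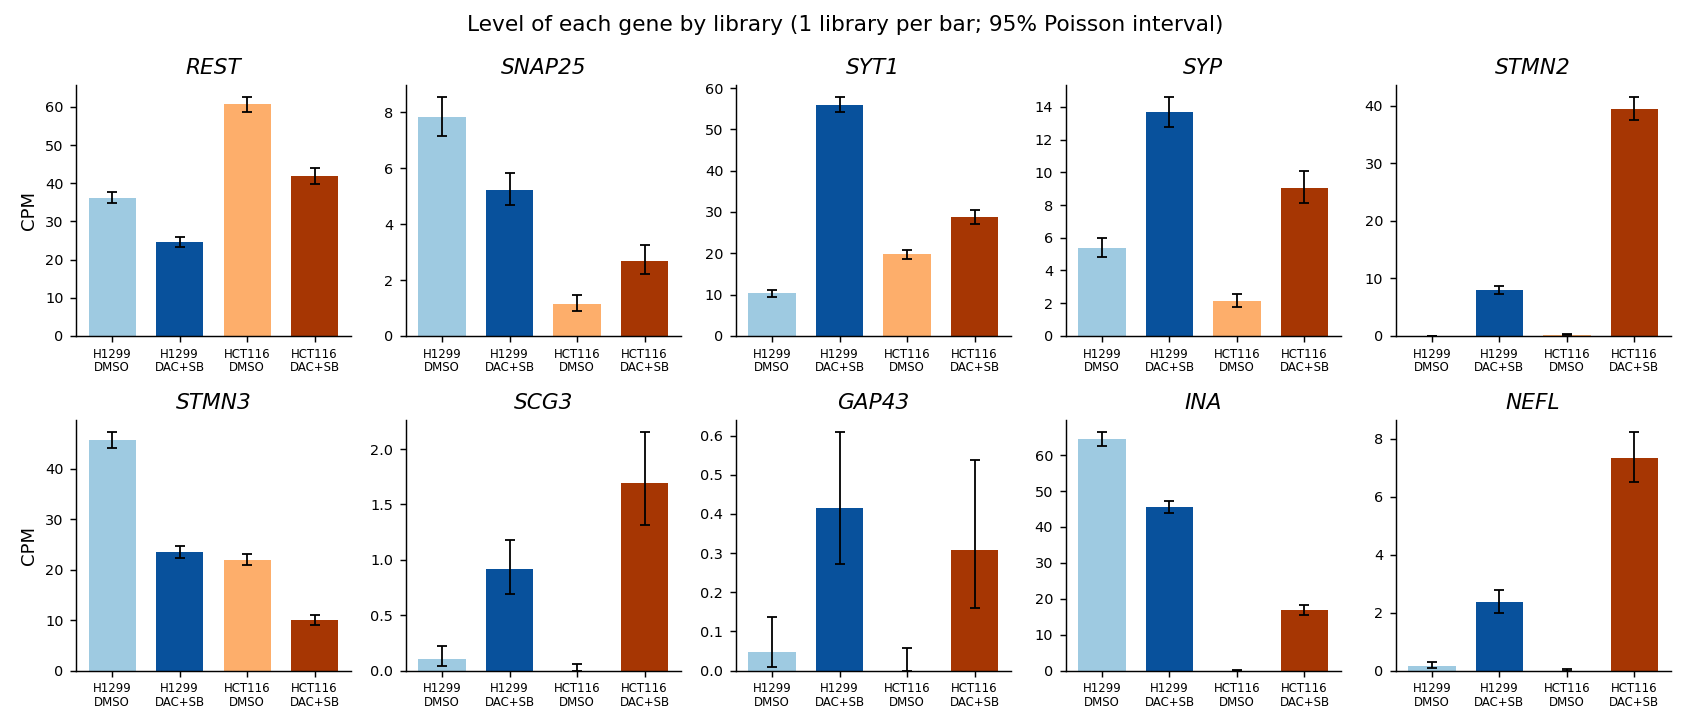
Level of each of the 10 genes in CPM (vertical axis, linear, a scale of its own in each panel) in the 4 libraries, 1 bar per library with its 95% Poisson interval. STMN2, SCG3, GAP43 and NEFL are at or near 0 with DMSO in both lines and higher with DAC+SB, while REST and STMN3 are lower with DAC+SB in both.

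The stathmin genes went opposite ways. STMN2 (chromosome 8) encodes a stathmin of growing axons. In H1299 it had 0 counts with DMSO and 495 or 7.93 (7.25 to 8.66) CPM with DAC+SB. The HCT116 values were 12 counts or 0.192 (0.0990 to 0.335) CPM with DMSO and 1539 or 39.5 (37.6 to 41.6) CPM with DAC+SB. Both treated libraries were far above both DMSO libraries, with HCT116 DAC+SB the highest. The HCT116 log2 ratio was 7.69 (6.88 to 8.64), a 206-fold difference. With the 0 set to 3 counts, H1299 DAC+SB was at least 171-fold higher, a log2 ratio of at least 7.41. This bound, like those below, holds only if unlisted features of the gene had no counts there, since the table lists features with a number after the gene's name from 10 counts per library upward. The numbered feature of STMN2 was listed in neither DMSO library and held 363 and 1207 of the treated counts. Without it the log2 ratios were at least 5.51 in H1299, against 0 counts, and 5.48 in HCT116. By log2 ratio over all features STMN2 stood above 98.8% of genes in H1299 and 98.4% in HCT116. The H1299 rank is that of its bound, among genes whose zeros were also set to 3 counts.

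STMN3 (chromosome 20, 63639705 to 63657682), its relative, was already present in both lines. In H1299 it had 2948 counts or 45.7 (44.1 to 47.4) CPM with DMSO and 1466 or 23.5 (22.3 to 24.7) CPM with DAC+SB. The HCT116 values were 1379 or 22.0 (20.9 to 23.2) CPM with DMSO and 387 or 9.94 (8.98 to 11.0) CPM with DAC+SB. The treated library was lower in each line. With all features counted, H1299 DAC+SB and HCT116 DMSO did not differ beyond their intervals. Over the plain-named feature H1299 DAC+SB was the higher of this pair, at 18.1 CPM (1130 counts) against 11.96 CPM (749 counts). The log2 ratios were -0.96 (-1.05 to -0.87) and -1.15 (-1.31 to -0.98), H1299 first. Over the plain-named feature the HCT116 ratio was -1.48. STMN3 stood above 8.19% of genes in H1299 and 15.8% in HCT116. Of the other stathmins, STMN1, which is common in dividing cells, had log2 ratios of -0.64 and -1.09. STMN4 went from 0 to 16 and from 4 to 73 counts. Both relatives come from a fixed list and were picked for mention after their values were seen.

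Of the neurofilament genes, INA differed far more between the lines before treatment than NEFL. In H1299, INA (chromosome 10, 103277163 to 103290351) had 4165 counts or 64.5 (62.6 to 66.5) CPM with DMSO and 2838 or 45.5 (43.8 to 47.2) CPM with DAC+SB. In HCT116 it had 0 counts with DMSO and 655 or 16.8 (15.6 to 18.2) CPM with DAC+SB. H1299 was thus the higher line under both treatments, at least 1348-fold with DMSO and 2.70-fold with DAC+SB. INA was lower with DAC+SB in H1299, at a log2 ratio of -0.51 (-0.58 to -0.44), and at least 351-fold higher in HCT116, a log2 ratio of at least 8.46. Without its numbered feature, listed only in the treated libraries, the values were -0.79 and at least 7.74. Because INA was a transcript of untreated H1299, the H1299 markers in HCT116 are given beside it. Of 10 such markers, 7 had at least 100 counts in HCT116, of which DAC+SB was past 4-fold above DMSO for 2 and past 4-fold below it for 2, against 9.63% and 3.69% of all genes. The list summed to 326 CPM with DMSO and 363 CPM with DAC+SB. VIM held 47.0 and 265 CPM of these sums, so the other markers together were lower with DAC+SB. CDH2 had no count in the untreated and 156 in the treated HCT116 library, as for INA, and VIM had 2947 and 10321. AXL, abundant in untreated H1299 at 13166 counts, had 1392 and 84. The part of other cells in the INA counts was not tested.

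In H1299, NEFL (chromosome 8) had 11 counts or 0.170 (0.0851 to 0.305) CPM with DMSO and 147 or 2.35 (1.99 to 2.77) CPM with DAC+SB. In HCT116 it had 0 counts with DMSO and 286 or 7.35 (6.52 to 8.25) CPM with DAC+SB. Both treated libraries were higher, and their intervals did not overlap. The log2 ratio was 3.79 (2.91 to 4.82) in H1299, a 13.8-fold difference, and at least 7.26 in HCT116, at least 153-fold. Without the numbered feature, listed only with DAC+SB, these were 3.08 and at least 6.51, and in H1299 the 90 counts left were under the minimum of 100. The partner subunits were also counted. NEFM (the medium chain) had 15 (DMSO) and 367 (DAC+SB) counts in H1299, with 0 and 1854 in HCT116, log2 ratios of 4.66 and at least 9.96. NEFH (the heavy chain) had 1911 and 4300 in H1299, with 2 and 3000 in HCT116, log2 ratios of 1.22 and 11.24. In HCT116 the counts of INA, NEFL, NEFM and NEFH thus went from 0, 0, 0 and 2 with DMSO to 655, 286, 1854 and 3000 with DAC+SB.

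Of the genes of vesicle release, SYT1 and SYP were higher with DAC+SB in both lines, and SNAP25 was lower in H1299, while its direction in HCT116 depended on the features counted. SYT1 (chromosome 12, 78863993 to 79452008) encodes synaptotagmin-1, the calcium sensor of fast release. In H1299 it had 665 counts or 10.3 (9.54 to 11.1) CPM with DMSO and 3495 or 56.0 (54.1 to 57.9) CPM with DAC+SB. The HCT116 values were 1238 or 19.8 (18.7 to 20.9) CPM with DMSO and 1117 or 28.7 (27.0 to 30.4) CPM with DAC+SB. With all features counted, HCT116 was the higher line with DMSO and H1299 with DAC+SB. The log2 ratio was 2.44 (2.32 to 2.56) in H1299 and 0.54 (0.42 to 0.66) in HCT116. The first minus the second was 1.90 (1.74 to 2.07). This difference was beyond counting error, with no replicate behind it. With the plain-named feature and the numbered one listed in both H1299 libraries, the H1299 ratio was 2.61. Over the plain-named feature it was 1.62 (1.48 to 1.77), under 4-fold, and the HCT116 ratio was 0.40, with a line difference of 1.22 (0.97 to 1.47). H1299 was then the higher line under both treatments. Its levels were 8.01 (DMSO) and 24.7 (DAC+SB) CPM, against 6.64 and 8.79 CPM in HCT116.

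SYP (chromosome X, 49187804 to 49200259) encodes synaptophysin, a membrane protein of synaptic vesicles. In H1299 it had 348 counts or 5.39 (4.84 to 5.99) CPM with DMSO and 853 or 13.7 (12.8 to 14.6) CPM with DAC+SB. The HCT116 values were 134 or 2.14 (1.79 to 2.53) CPM with DMSO and 353 or 9.07 (8.15 to 10.1) CPM with DAC+SB. Each treated library was above both DMSO libraries. The fold difference was 2.53 (2.23 to 2.88) in H1299 and 4.24 (3.46 to 5.21) in HCT116, so the HCT116 call at 4-fold lay within counting error of the threshold. Without a numbered feature listed only with DAC+SB, the H1299 log2 ratio of 1.34 became 0.92. Over the plain-named feature the HCT116 log2 ratio of 2.08 became 3.46 (2.97 to 3.99).

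SNAP25 (chromosome 20, 10218830 to 10307418) encodes a plasma membrane protein of the complex that fuses vesicles. In H1299 it had 506 counts or 7.84 (7.17 to 8.56) CPM with DMSO and 326 or 5.22 (4.67 to 5.82) CPM with DAC+SB. The HCT116 values were 72 or 1.15 (0.899 to 1.45) CPM with DMSO and 105 or 2.70 (2.21 to 3.27) CPM with DAC+SB. With all features counted, the gap between the lines was 6.82-fold with DMSO and 1.94-fold with DAC+SB. Over the plain-named feature the levels were 5.998 (H1299) and 0.718 (HCT116) CPM with DMSO. With DAC+SB they were 2.691 and 0.668 CPM, a wider gap than over all features. The log2 ratio was -0.59 (-0.79 to -0.38) in H1299 and 1.23 (0.78 to 1.68) in HCT116. The first minus the second was -1.82 (-2.29 to -1.34). In HCT116 the higher level lay in a numbered feature, with 27 counts under DMSO and 79 under DAC+SB, while the feature with the plain name had 45 and 26. Over the latter alone the log2 ratio was -0.11 (-0.86 to 0.62) in HCT116, with the sign turned and an interval that includes 0, and -1.16 (-1.43 to -0.89) in H1299. SNAP25 lies within the antisense gene SNAP25-AS1 (chromosome 20, 10021978 to 10368776), which had 73 (DMSO) and 33 (DAC+SB) counts in H1299, and 1 and 8 in HCT116. The sources used here do not say whether strand was used in counting, so reads of the pair may not be told apart.

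SCG3 and GAP43 stayed rare. SCG3 (chromosome 15, 51681353 to 51721031), which holds the pair of RE1 ends shown above, had 7 (DMSO) and 57 (DAC+SB) counts in H1299, and 0 and 66 in HCT116. Its level was 0.913 (0.692 to 1.18) CPM in treated H1299 and 1.70 (1.31 to 2.16) CPM in treated HCT116. The log2 ratio was 3.07 (1.94 to 4.45) in H1299 and at least 5.15 in HCT116, or 2.19 and at least 4.27 without a numbered feature listed only with DAC+SB. GAP43 (chromosome 3, 115623324 to 115721490) had 3 and 26 counts in H1299, and 0 and 12 in HCT116. Its treated levels of 0.416 (0.272 to 0.610) and 0.308 (0.159 to 0.538) CPM did not differ beyond their intervals. Its log2 ratio was 3.16 (1.46 to 5.53) in H1299 and at least 2.69 in HCT116. Neither gene reached 100 counts, so neither enters the counts of genes past 4-fold.

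**Figure D2:**
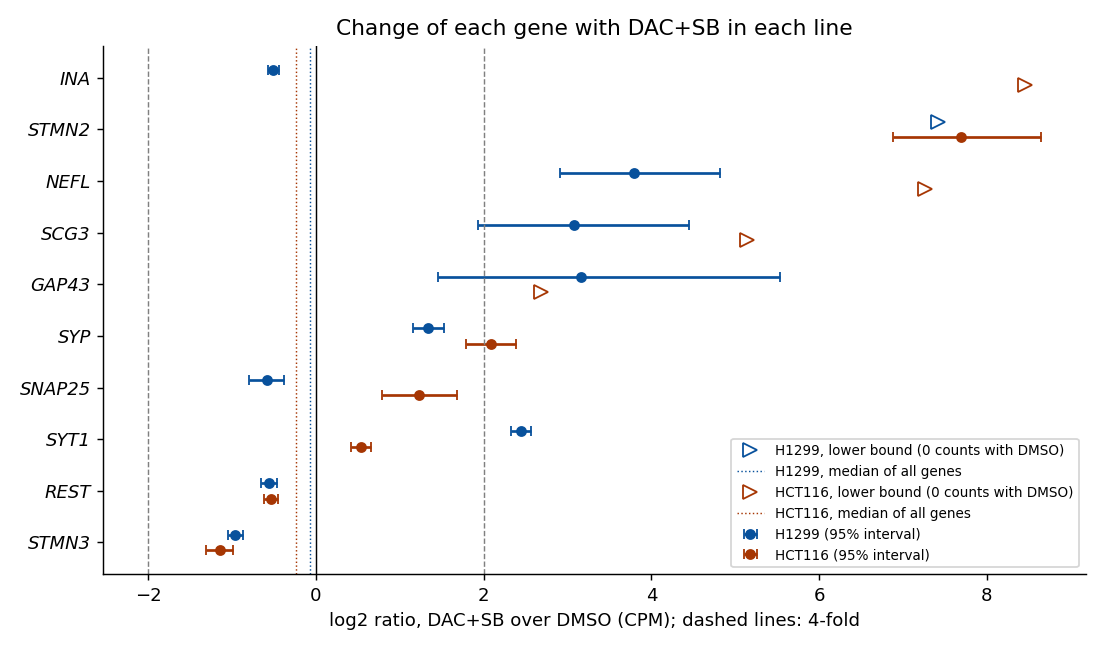
Log2 ratio of DAC+SB over DMSO (horizontal axis) of each gene in H1299 (blue) and HCT116 (brown), with 95% counting intervals, lower bounds as open triangles, the median of all genes dotted and the 4-fold lines dashed. INA and SNAP25 lie on opposite sides of 0 in the 2 lines (SNAP25 not over plain-named features), STMN2 lies past 7 in both, and REST lies at -0.56 and -0.53.

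The direction of the summed level in H1299 depended on the features counted. The 9 neuronal genes summed in H1299 to 134 (131 to 137) CPM with DMSO and 155 (152 to 159) CPM with DAC+SB. In HCT116 they summed to 45.3 (43.6 to 47.0) CPM with DMSO and 116 (113 to 120) CPM with DAC+SB. INA and STMN3 held 82.2% of these counts in untreated and 44.4% in treated H1299. Without this pair, which was set aside after its values were seen, the other 7 genes summed to 23.9 and 86.5 CPM in H1299 and to 23.2 and 89.3 CPM in HCT116. Over plain-named features the 9 genes summed to 118 and 97.5 CPM in H1299, which turns the direction, and to 20.1 and 44.8 CPM in HCT116. With plain-named features and only those numbered ones listed in both libraries of a line, the H1299 sums were 133 and 137 CPM, with intervals that overlap. The other 7 genes summed over plain-named features to 19.7 and 42.0 CPM in H1299 and to 8.16 and 30.3 CPM in HCT116. All 9 genes were counted in both treated libraries, against 8 in H1299 DMSO and 5 in HCT116 DMSO. The share of all genes counted in each library was not computed. A list of genes of other tissues, described below, also gained. Of its 26 genes found by name, 19 (H1299) and 12 (HCT116) had no count with DMSO. With DAC+SB this was 2 in each line.

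The values per cell below count all features of a gene and were not recomputed over plain-named ones. How many cells carried each transcript was compared after thinning every cell to 3300 counts, which left out 402 treated HCT116 cells. Intervals of shares are 95% Clopper-Pearson intervals. STMN2 was counted in 2.71% (2.21 to 3.28) of H1299 DAC+SB cells and 11.7% (10.8 to 12.8) of HCT116 DAC+SB cells. With DMSO it was counted in 0 of 3578 H1299 cells (Clopper-Pearson upper limit 0.103%, with 3 cells being a share of 0.0838%). Among HCT116 DMSO cells it was counted in 0.137% (0.0444 to 0.319). INA was counted in 17.4% (16.2 to 18.7) and 13.6% (12.5 to 14.8) of H1299 cells (DMSO first). In HCT116 it was counted in 0 of 3658 DMSO cells (Clopper-Pearson upper limit 0.101%, with 3 cells being 0.0820%) and in 4.89% (4.24 to 5.61) of DAC+SB cells. These limits are on cells with a count at this depth, not on cells that express the gene.

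SYT1 was counted in 3.61% (3.02 to 4.27) and 16.6% (15.4 to 17.8) of H1299 cells and in 5.99% and 7.82% of HCT116 cells. Without thinning the HCT116 shares were 20.8% and 19.3%, against the direction of the CPM, at median depths of 16257.5 and 8449 counts. SYP was counted in 1.93% and 4.67% of H1299 cells and 0.683% and 3.31% of HCT116 cells. NEFL was counted in 0.0559% and 0.698% of H1299 cells and in 0% and 2.11% of HCT116 cells. SCG3 and GAP43 were in under 1% of the thinned cells of every library. REST was counted in 10.5% and 7.68% of H1299 cells and 17.7% and 12.5% of HCT116 cells, and STMN3 in 13.1% and 6.98%, and 6.92% and 2.93%. No cell type known to lack these genes was analysed here, so the part of free RNA in these shares was not measured.

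**Figure D3:**
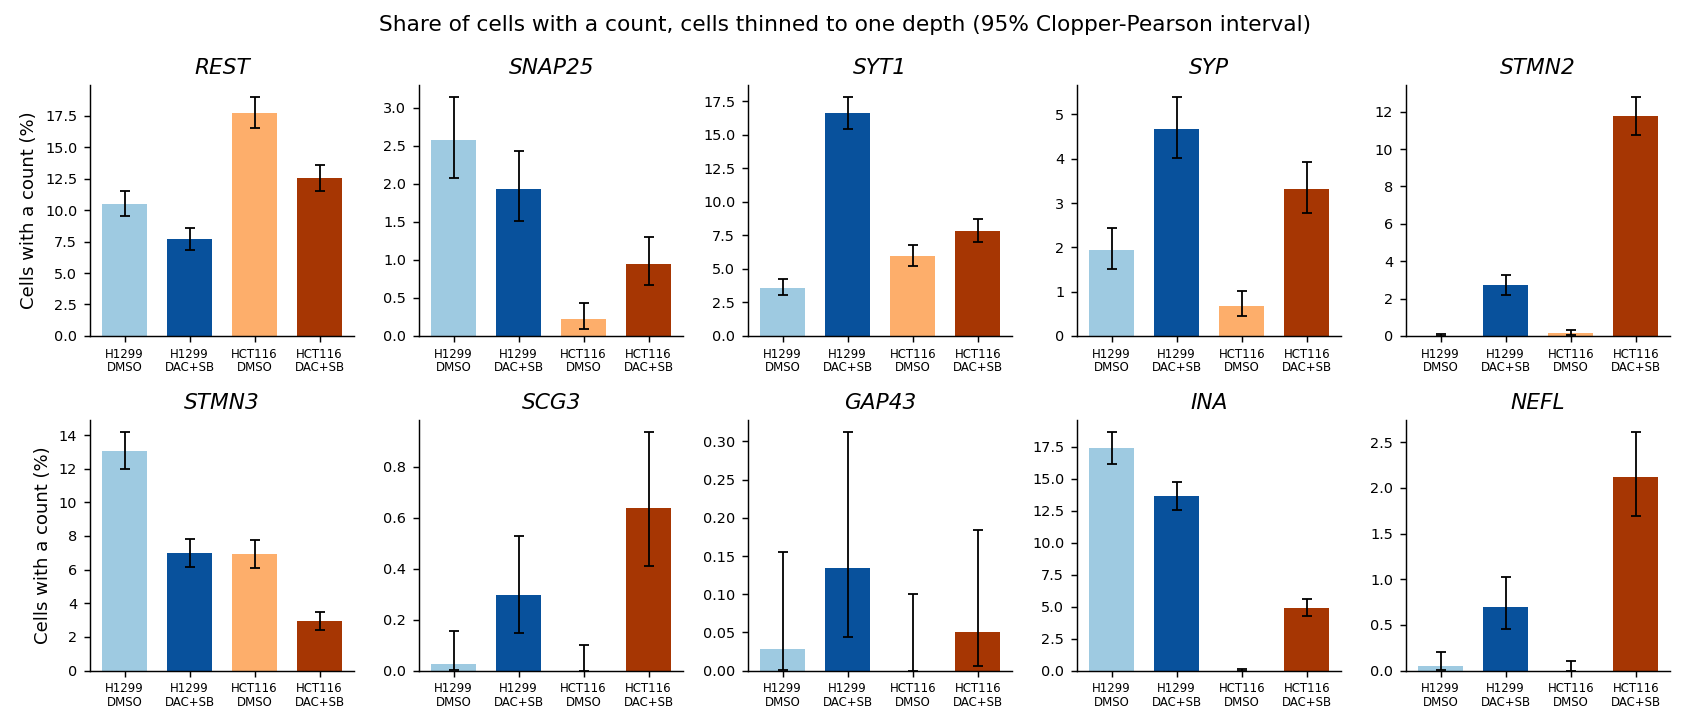
Share of cells with a count of each gene (vertical axis, percent, from 0) after thinning to 3300 counts per cell, 1 bar per library with its 95% interval. STMN2 is in 11.7% of treated HCT116 cells and 2.71% of treated H1299 cells, and INA is in 0% of HCT116 DMSO cells.

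The unthinned counts show how the transcripts lay within cells. STMN2 was in 24.2% of HCT116 DAC+SB cells, with 1.47 counts per cell that had it and at most 6 in a cell. SYT1 was in 51.4% of H1299 DAC+SB cells, with 1.83 counts per cell that had it and at most 13. Of the 1046 treated HCT116 cells with STMN2, 327 had 2 or more counts of it, as did 893 of the 1915 treated H1299 cells with SYT1. Most of these cells thus held 1 count. For NEFL in treated HCT116 the variance of the thinned counts over cells was 1.53 times the mean, and for the other 9 genes there it was between 0.991 and 1.17 times.

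At the thinned depth few cells held counts of several neuronal genes, and no pair of genes had 2 intervals that lay apart. In thinned cells, 40.3% of H1299 DAC+SB cells had a count of at least 1 of the 9 genes and 6.63% (5.85 to 7.48) of at least 2. In HCT116 DAC+SB these were 30.5% and 3.67% (3.10 to 4.31), against 13.3% and 0.629% with DMSO. In H1299 DMSO they were 33.6% and 4.75% (4.08 to 5.50). Pairs were compared where both genes, REST included, were in at least 50 thinned cells. Among 21 pairs in each treated library, the share of cells with one gene differed between cells with and without the other by -4.85 to 3.18 percentage points in H1299 and by -3.40 to 1.79 in HCT116. The intervals overlapped for all of these pairs. Overlap of 2 intervals does not show that there was no difference, and the numbers expected for independent genes were not computed. In treated HCT116, INA was in 2.85% (1.56 to 4.73) of cells with a REST count and 5.18% (4.47 to 5.98) of cells without one, intervals that overlap.

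TE counts were compared in the same way. The median TE share of a thinned cell was 2.55% in treated H1299 cells both with and without a neuronal transcript, and 4.88% in both kinds of treated HCT116 cells. The gene with the widest gap was NEFL in treated HCT116, with 6.03% (quartiles 3.92 to 9.24) in 83 cells with a count and 4.85% (3.12 to 7.27) in 3842 cells without one. These quartile ranges overlap. For STMN2 in the same library the medians were 4.64% and 4.88%, and the median mitochondrial shares were 16.6% and 18.0%.

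The partners of REST were read from a list of corepressors and regulators. This list and those below were chosen with earlier results of these data known, so an excess over all genes is a description only. Beside each list below stand the shares of all genes at least 4-fold higher with DAC+SB, 11.0% in H1299 and 9.63% in HCT116. The shares at least 4-fold lower were 0.349% and 3.69%, and no list from here on had a gene past 4-fold lower. Of 21 genes in this list, 20 had at least 100 counts in each line. In H1299, 1 was past 4-fold higher and none past 4-fold lower, the latter against 0.349% of all genes. Of the 20, 8 were above 0, against 45.9%, and the median log2 ratio was -0.19. In HCT116 none passed 4-fold in either direction, the lower one against 3.69% of all genes. None of the 20 was above 0, against 40.6%, at a median of -0.66 against -0.23 over all genes. RCOR2, a relative of RCOR1, was the gene past 4-fold, with 49 and 234 counts in H1299 (log2 ratio 2.30). It was followed by HMG20B at 0.84 and SIN3B at 0.57. CTDSPL, a phosphatase, was the lowest in both lines, at -1.17 and -1.93. RCOR1 was at 0.37 and -0.21, SIN3A at -0.54 and -0.64, and KDM1A at 0.50 and -0.37, H1299 first. The deacetylase HDAC1 was at 0.16 and -0.58, and HDAC2 at -0.26 and -0.39. RCOR3 at -0.01 and HMG20B at -0.22 were the highest in HCT116 with RCOR1.

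Other genes widely described as REST targets came from a list of 28. Of these, 18 had the minimum count in H1299, of which 10 were at least 4-fold higher, at a median log2 ratio of 2.44, against 11.0% of all genes. In HCT116, 5 of 15 were at least 4-fold higher, at a median of 1.44, against 9.63%. CHGA, the granule protein chromogranin A, had 1 and 141 counts in H1299 (DMSO first), with 1 and 324 in HCT116, log2 ratios of 7.19 (4.69 to 12.50) and 9.03 (6.54 to 14.33). ELAVL3, a neuronal RNA-binding protein, went from 36 to 1534 and from 3 to 865, log2 ratios of 5.46 and 8.86. NPPB, a natriuretic peptide of the heart, was at least 39.3-fold higher in H1299. VGF, a neuropeptide precursor, was 12.5-fold higher in HCT116. CELSR3 in H1299 (-0.96) and BDNF in HCT116 (-1.32) were the lowest.

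The machinery of vesicle release was mixed. Of 32 genes, 22 had the minimum count in H1299 and 5 were at least 4-fold higher, and in HCT116 5 of 19 were. The shares of all genes were 11.0% and 9.63%, and the list's median log2 ratios were 0.71 and 0.54. SV2A, a vesicle glycoprotein, went from 1 to 258 counts in H1299, with RAB3C at 4.56 and SYT11 at 3.65 next. SYT11 was the highest in HCT116 at 4.88, followed by SYN1 at 3.63 and SYT5 at 3.24. STX1A, a partner of SNAP25 in membrane fusion, was the lowest in H1299 at -0.85 and was at 1.23 in HCT116. NSF, which takes fusion complexes apart, was the lowest in HCT116 at -1.04.

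In the list of stathmin, filament and growth cone genes, 6 of 16 with the minimum count were at least 4-fold higher in each line, against 11.0% and 9.63% of all genes, at median log2 ratios of 1.00 and 1.34. NES (nestin, a filament of neural precursors) was the highest in H1299 at 7.11, followed by PRPH (peripherin) at 5.40 and NEFM. CRMP1, an axon guidance protein, followed NEFH and NEFM in HCT116 at 7.44. The lowest were VIM in H1299 (-0.99) and MARCKS in HCT116 (-1.52). Among 24 factors and RNA-binding proteins of neuronal identity, only 7 and 5 had the minimum count, of which 2 and 3 were at least 4-fold higher, against the same shares, at medians of 0.77 and at least 6.56, the latter being the bound of ELAVL2. They included CELF4 (2.26) after ELAVL3 in H1299 and POU4F1 (6.92) and ELAVL2 (at least 6.56) in HCT116. ISL1 came next in H1299 at 1.24. The lowest were NOVA1 in H1299 (-0.35) and MYT1 in HCT116 (-0.90).

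Genes of other tissues were read beside these. Of 15 glial genes, 4 had the minimum count in H1299 and 6 in HCT116, and 1 and 0 of them were at least 4-fold higher, against 11.0% and 9.63% of all genes. S100B was the one, with 0 and 170 counts in H1299, and the medians were 0.38 and -0.43. SLC1A3 was at 1.13, CNP at -0.36 and MBP at -0.68 in H1299. ALDH1L1 was at 1.52, GFAP at 0.92, CNP at -0.22 and MBP at -1.27 in HCT116. Of 30 genes of liver, blood, muscle and other organs, 4 in H1299 and 5 in HCT116 had the minimum count, and 4 and 3 were at least 4-fold higher, against the same shares. CKM, the muscle creatine kinase, had 0 and 715 counts in H1299 (DMSO first), with 3 and 671 in HCT116. DES was at 8.12 and 2.36, APOA1 at 3.71 and 2.23, and NPHS1 at -0.11 in HCT116. The medians of this list were at least 7.33 and 2.23. Over plain-named features, 8 of 16 (H1299) and 4 of 14 (HCT116) REST targets were at least 4-fold higher, with 4 of 21 and 4 of 19 vesicle genes. For the stathmin and filament list these were 6 of 16 and 5 of 15, for neuronal identity 2 of 7 and 3 of 5, for glia 0 of 2 and 0 of 3, and for other tissues 4 of 4 and 2 of 3. The shares of all genes were 7.90% and 5.31%. The REST target median in HCT116 moved from 1.44 to 0.39. The glial medians moved from 0.38 to -0.76 in H1299 and from -0.43 to -1.34 in HCT116. The stathmin and filament median in HCT116 moved from 1.34 to 0.74, and that of other tissues in H1299 from at least 7.33 to at least 6.16. The other medians of these lists moved less.

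**Figure D4:**
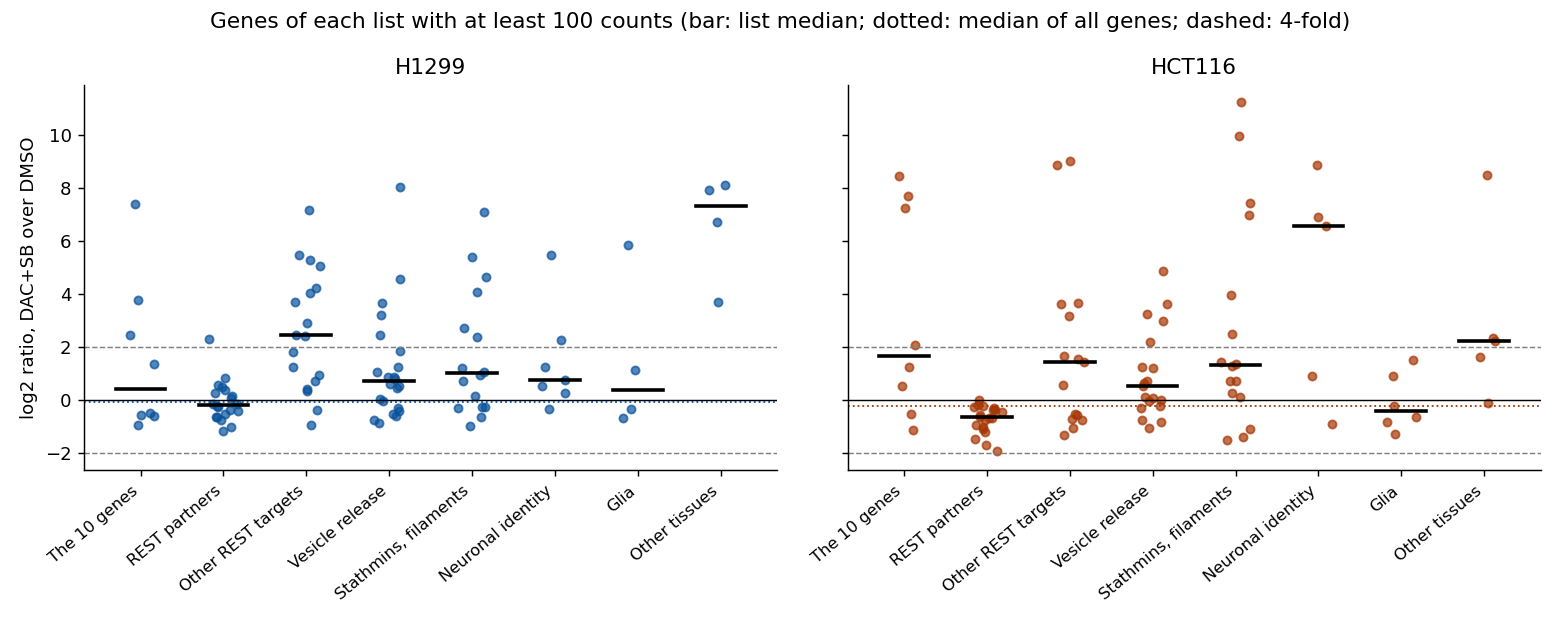
Log2 ratio of DAC+SB over DMSO (vertical axis) of the genes of each list whose higher library had at least 100 counts, in H1299 (left) and HCT116 (right). Each point is 1 gene, genes at 0 with DMSO lie at their bound, bars are list medians, dotted lines the median of all genes and dashed lines 4-fold. All REST partners but RCOR2 in H1299 lie within 4-fold, and each other list has genes above 4-fold in at least 1 line.

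The genes with the most similar levels over the 4 libraries were found by Euclidean distance of log2(CPM + 1) among 15504 other genes. REST was nearest to MPHOSPH6 (distance 0.18) and ZPR1 (0.27), and STMN2 to C7orf71 (0.27) and SBSN (0.28). SYT1 was nearest to FBXO2 (0.59) and RNASET2 (0.65), and INA to CTD-2006C1.2 (0.69) and LIN28B (0.76). LIN28B, for example, had 69.7 and 53.7 CPM in H1299 and 0 and 9.89 CPM in HCT116, DMSO first. Such likeness over 4 libraries is a description only.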

How the data were processed

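The 10 genes and the gene lists were chosen with earlier results of these data known. Counts per cell, in whole numbers, were deposited in 2 tables, 1 of gene features and 1 of TE loci, from 10x Genomics 5′ libraries, per the labels. STAR, CASAVA and GRCh38 (hg38) are named in the submitters' processing notes with no role. The sources used here do not give the counting tool, its use of strand or of molecular identifiers, the annotation or the cell filter. Cells were assigned to libraries by the library name in each cell name. All cells had at least 500 counts and were kept, and no doublet caller was run.

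Counts of features whose text before the first | equals a gene name were summed per library and divided by gene plus TE counts. Names that join several genes were left out. Ratios carry exact conditional binomial 95% intervals, and differences between lines carry normal-theory intervals with variance equal to the summed inverse counts. A library at 0 was set to 3 counts when the other exceeded that. Cells were thinned by a hypergeometric draw to the lowest 10th percentile of counts, rounded down to a multiple of 100. The named genes were the 10 genes, in each list the 3 highest and the lowest log2 ratio per line among genes with at least 100 counts, 5 fixed corepressors and the 2 nearest profiles. Of these, 1 gene of other tissues is not reported here, and the line markers are given mainly as sums. Others are marked as chosen after their values were seen. The ratio and threshold steps were tested on simulated data. Python 3.11.15, numpy 2.4.6, pandas 2.3.3, scipy 1.17.1 and matplotlib 3.10.9 were used. Alternatives changed the denominator, the features (plain-named features alone were added after seeing the data), the cells, the minimum count, the threshold and the thinning.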

Additional observations from a re-analysis of the deposited data

Results flagged for a closer look

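INA and SNAP25 stood out because their levels went opposite ways in the 2 lines, with 1 library per group and so with no test of that difference. The share of all genes that went opposite ways was not computed. By log2 ratio INA stood above 25.2% of genes in H1299 and 99.2% in HCT116, and SNAP25 above 21.1% and 86.1%. The log2 ratio of DAC+SB over DMSO of INA was -0.51 in H1299 and at least 8.46 in HCT116. That of SNAP25 was -0.59 in H1299 and 1.23 in HCT116, but over plain-named features -1.16 and -0.11, in the same direction. For both genes H1299 DMSO was the highest of the 4 libraries.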

How the results depend on the processing

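Of 155 alternative values for the 20 log2 ratios (10 genes in 2 lines), 154 kept their direction. The exception was SNAP25 in HCT116 over plain-named features only, an alternative chosen after seeing the data, at -0.11. This tally is not a measure of robustness. Adding joined names left all 20 ratios as they were, and a changed denominator shifts all genes of a line alike. Over plain-named features 13 of the 20 ratios left their interval or changed their bound, 1 reversed and 6 stayed. Of 120 values for the 15 ratios with a counting interval, 106 lay within it, and the others came from leaving out numbered features, with values beside each gene. Of 35 values for the 5 lower bounds, which have no interval, 7 were equal to the reported bound. The count of genes at least 4-fold higher in H1299 was 3 and became 5 with a minimum of 1 count, which adds SCG3 and GAP43, and 1 (STMN2) over plain-named features. SYT1 was then under 4-fold and NEFL under the minimum count. It was 2 when numbered features were kept only where listed in both libraries of the line (without NEFL). At 2-fold it was 4 (with SYP). In HCT116 it was 4, between 4 and 6 under all alternatives. The shares of all genes, H1299 first, were 11.0% and 9.63% in the main setting and 18.3% and 16.2% at 2-fold. Over plain-named features they were 7.90% and 5.31%. For the other alternatives, the minimum of 1 count among them, the share of all genes was not computed, so those counts cannot be set against it. No paired analysis was possible because each group had 1 library, and no replicate could be left out for the same reason. Depth limits SCG3 and GAP43, with at most 66 counts in a library, and all shares of cells for rare transcripts.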

Other observations

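Several genes of the fixed lists that were not named by the rule are given here, chosen after their values were seen. BASP1, a growth cone protein that resembles GAP43 in function, was near its DMSO level in H1299 (4604 and 4994 counts, log2 ratio 0.16) and went from 0 to 235 counts in HCT116. L1CAM, an adhesion protein of axons, went from 11 to 356 counts in H1299 (log2 ratio 5.06) and had 570 and 531 in HCT116 (0.58). The log2 ratio of SYT7, a relative of SYT1, was 4.04 (H1299) and -0.71 (HCT116). For CPLX1, which binds the fusion complex, it was 1.25 and -0.75. MAP2, a microtubule protein of dendrites, was higher with DAC+SB in both lines, at 2.72 and 1.30. DCX, a microtubule protein of migrating neurons, had no count in H1299, and 0 (DMSO) and 2 (DAC+SB) in HCT116. SRRM4, a splicing factor that makes the neuronal form of REST, had 0 and 1 counts in H1299, and 2 and 22 in HCT116. None of these values has a replicate behind it.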
